A study of Mus musculus with 8 samples.

Results

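Replication-dependent histone genes encode the bulk of the nucleosome's H2A, H2B, H3 and H4 proteins and the linker histone H1. They are small, mostly lack introns and lie in clusters; their transcripts end in a stem-loop instead of a poly(A) tail and are made mainly in S phase. Transcription takes place at the histone locus body, where NPAT and its partners gather on the clusters. Haematopoietic stem cells (HSCs) are mostly quiescent, so few of them are in S phase at a given time.

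The genes were taken from the mm10 annotation by symbol: protein-coding genes whose names begin with the current family names (H1f1 to H1f6, H2ac, H2bc, H3c, H4c) or the older Hist1, Hist2 and Hist3. The rule matched 67 symbols, 3 of them pseudogenes, and left 64 of 21631 protein-coding genes. It was applied to the symbols in the annotation, so H2bu2, whose older name is Hist3h2ba, was not matched. They comprised 7 H1, 17 H2A, 16 H2B, 12 H3 and 12 H4 genes. H1f10, on chromosome 6, was matched through the letters of its name only. It encodes a linker histone that is not replication-dependent and lies outside the clusters.

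The marks were mapped by CUT&RUN, which cuts and releases DNA around antibody-bound nucleosomes in permeabilised cells. H3K4me3 marks promoters, H3K27ac active promoters and enhancers, and H3K4me1 enhancers and the flanks of promoters. HSCs were sorted as Lin-cKit+Sca1+CD48-CD150+ bone marrow cells of C57BL/6 mice aged about 10 months, with the cells of 4 or 5 mice pooled and 7500 cells per assay. RXRKO HSCs lacked Rxra and Rxrb, the genes of a pair of nuclear receptors, through Vav-Cre, which is active in blood cells from early on (VavCre+; RxRa delta/delta; RxRb delta/delta). WT cells are given as VavCre+ in the sample labels but as Rxrabfl/fl without Cre in the design text, so genotype and Cre cannot be told apart.

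H3K4me1 was mapped in 2 WT and 2 RXRKO libraries, whereas H3K4me3 and H3K27ac had 1 library per genotype and therefore no replicate error and no test. Whether replicates came from separate pools is not stated, so p-values measure only the spread between libraries. Each library was deposited as a list of peaks, 147698 to 165128 for H3K4me1, 47835 (WT) and 58136 (RXRKO) for H3K4me3, and 74287 (WT) and 64849 (RXRKO) for H3K27ac. Read totals are not in the lists and the depth is unknown. In the bulk material, fewer cells with a mark and less of the mark per cell cannot be told apart.

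At the deleted genes, a stretch of 781 bp in Rxrb (chr17:34033516-34034296) lay within peaks of both WT H3K4me1 libraries and in no peak of any RXRKO library. At Rxra the longest such stretch was 76 bp, against 340 bp in the opposite direction. How many other genes hold such stretches was not counted, so these values do not settle the labels. All 10 HSC marker genes carried H3K4me3 and H3K27ac in both genotypes, counting any peak on the gene or its 1 kb flanks. Within 1 kb of the start, measured for 8 of them, all 8 had H3K4me3 in both genotypes but only 4 had H3K27ac in both. There, Kit had H3K27ac in WT only, and Mecom, Hlf and Gata2 had none. The other marker lists were partly marked over the gene and its flanks. H3K4me3 was present in both genotypes at 3 of 6 mature myeloid, 2 of 5 erythroid and 2 of 6 germ line genes. Of the lymphocyte genes, Cd79b, Lck, Ebf1 and Pax5 had both marks in both genotypes. Within 1 kb of the start, however, Lck had H3K4me3 in RXRKO only and Pax5 had neither mark. Calls over the gene and its flanks differed between genotypes at 2 markers. They were Cd79a, a B cell receptor subunit (H3K4me3 in RXRKO only), and Hbb-bt, a beta-globin gene (H3K4me3 and H3K27ac in RXRKO only). Elane, S100a8, S100a9, Cd3e, Hba-a1 and Hbb-bs had neither mark.

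The sequences just before the starts of some genes show what the marked and unmarked promoters share. They are from RefSeq on GRCm38.p6 (the assembly behind mm10), read 5′ to 3′ towards the named gene, and end on the base before its annotated start. Where a start faces another histone gene closer than 250 bases away, the stretch is cut at that gene's start. Capitals mark the histone octamer ATTTGCAT, the CCAAT box CCAAT, the TATA box TATAAA and the H1 gene element AAACACA, on either strand. H2bc12 shares its promoter with H2ac12 and carried all 3 marks in both genotypes. H2bc11 shares its promoter with H2ac11 and had an H3K27ac peak in WT only.
H2bc12, chr13:22035644-22035820, + strand: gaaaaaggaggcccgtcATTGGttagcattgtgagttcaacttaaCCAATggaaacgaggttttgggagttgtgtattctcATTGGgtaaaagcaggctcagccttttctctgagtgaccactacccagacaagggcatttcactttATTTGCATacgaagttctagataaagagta
H2bc11, chr13:22042950-22043197, + strand: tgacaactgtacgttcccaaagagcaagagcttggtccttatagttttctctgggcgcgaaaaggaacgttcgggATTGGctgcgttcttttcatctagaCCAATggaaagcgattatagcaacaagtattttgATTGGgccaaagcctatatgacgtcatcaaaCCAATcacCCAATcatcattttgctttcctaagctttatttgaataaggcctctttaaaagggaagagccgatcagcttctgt

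H2ac1 and H2ac23 are the partners of H2bc1 and H2bc23 in shared promoters that carried no peak in any library. H3c11 had no H3K4me3 either, yet its stretch also holds CCAAT and TATAAA.
H2ac1, chr13:23934187-23934436, + strand: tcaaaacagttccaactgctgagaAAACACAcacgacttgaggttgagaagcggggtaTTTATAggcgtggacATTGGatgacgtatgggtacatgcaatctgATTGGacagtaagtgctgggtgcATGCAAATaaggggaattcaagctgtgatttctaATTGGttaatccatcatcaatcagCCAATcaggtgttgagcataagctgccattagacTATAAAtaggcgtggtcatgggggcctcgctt
H2ac23, chr13:21810200-21810366, + strand: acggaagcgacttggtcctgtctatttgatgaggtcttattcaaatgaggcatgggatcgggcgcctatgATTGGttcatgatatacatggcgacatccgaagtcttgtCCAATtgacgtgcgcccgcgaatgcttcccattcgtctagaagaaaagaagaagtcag
H3c11, chr13:21783398-21783647, - strand: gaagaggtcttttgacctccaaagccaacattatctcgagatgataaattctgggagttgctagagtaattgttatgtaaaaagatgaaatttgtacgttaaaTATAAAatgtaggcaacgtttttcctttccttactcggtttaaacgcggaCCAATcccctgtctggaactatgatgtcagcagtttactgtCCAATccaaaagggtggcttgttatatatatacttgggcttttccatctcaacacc

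H4c17 and H4c18 are shown because their promoters are almost the same, as are those of H3c14 and H3c15.
H4c17, chr13:21811496-21811745, + strand: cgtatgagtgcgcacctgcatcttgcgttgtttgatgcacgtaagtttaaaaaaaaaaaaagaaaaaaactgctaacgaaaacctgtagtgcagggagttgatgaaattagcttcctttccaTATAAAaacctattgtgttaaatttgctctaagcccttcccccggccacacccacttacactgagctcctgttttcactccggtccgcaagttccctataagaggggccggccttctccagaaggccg
H4c18, chr13:21832198-21832447, - strand: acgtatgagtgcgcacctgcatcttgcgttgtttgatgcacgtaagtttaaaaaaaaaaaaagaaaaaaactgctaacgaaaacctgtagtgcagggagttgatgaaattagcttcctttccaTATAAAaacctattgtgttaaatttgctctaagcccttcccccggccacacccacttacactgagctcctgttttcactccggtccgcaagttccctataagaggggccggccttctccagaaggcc
H3c14, chr3:96246435-96246684, + strand: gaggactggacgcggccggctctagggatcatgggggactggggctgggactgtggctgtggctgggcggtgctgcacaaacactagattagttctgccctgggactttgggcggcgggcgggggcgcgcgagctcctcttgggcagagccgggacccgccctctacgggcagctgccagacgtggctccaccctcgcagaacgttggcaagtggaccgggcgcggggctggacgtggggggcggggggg
H3c15, chr3:96239128-96239377, - strand: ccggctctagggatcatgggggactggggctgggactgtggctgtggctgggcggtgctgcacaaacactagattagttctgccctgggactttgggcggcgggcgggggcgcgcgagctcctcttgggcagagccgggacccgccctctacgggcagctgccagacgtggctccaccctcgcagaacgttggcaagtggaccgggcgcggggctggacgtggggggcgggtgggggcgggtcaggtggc

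H1f2, a somatic linker histone gene, and H1f6, which encodes the testis linker histone, both hold AAACACA and CCAAT.
H1f2, chr13:23738557-23738806, + strand: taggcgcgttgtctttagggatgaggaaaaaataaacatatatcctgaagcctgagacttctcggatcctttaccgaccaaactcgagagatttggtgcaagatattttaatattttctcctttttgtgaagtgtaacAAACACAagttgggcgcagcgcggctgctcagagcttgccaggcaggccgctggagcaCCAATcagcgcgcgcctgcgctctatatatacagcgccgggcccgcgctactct
H1f6, chr13:23695561-23695810, + strand: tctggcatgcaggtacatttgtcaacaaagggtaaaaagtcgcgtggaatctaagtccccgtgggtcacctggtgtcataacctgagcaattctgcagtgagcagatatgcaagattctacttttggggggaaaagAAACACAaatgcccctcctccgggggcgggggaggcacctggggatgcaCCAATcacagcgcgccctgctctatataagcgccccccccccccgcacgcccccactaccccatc

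Motifs were counted in the 59 members with an entry in the RefSeq promoter table, over 300 bases from 250 before to 50 after the start, and in all 32851 entries of that table. ATTTGCAT was found in 12 (20.3%, against 1.74% of all entries), namely 6 of 17 H2A and 6 of 14 H2B promoters. CCAAT was found in 50 (84.7%, against 37.4%), including all 17 H2A, 14 H2B and 10 H3 promoters but only 3 of 11 H4 promoters; in H3c14 and H3c15 it lies after the start. TATAAA was found in 34 (57.6%, against 13.6%). AAACACA was found in 9 (15.3%, against 7.18%), 5 of them the H1 genes H1f2 to H1f6. Genes that share a promoter were counted separately, so a motif between their starts can count for both. Among the 12 with ATTTGCAT are the pairs H2ac1 with H2bc1, H2ac8 with H2bc8, and H2ac12 with H2bc12. All these counts are matches of letters. The letters did not separate marked from unmarked promoters among those printed: the H2ac1 stretch holds all 4 motifs without a peak in any library.

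H3K4me3 was called at most of the histone genes, and at the same ones in both genotypes. A gene was called where at least 1 bp of a peak lay on the gene or its 1 kb flanks. By this measure 58 of 64 members (90.6%) were called in both WT and RXRKO, against 73.1% of all protein-coding genes. None was called in WT only (all genes: 0.365%) or in RXRKO only (all genes: 1.34%). The remaining 6 (9.38%; all genes: 25.2%) had no H3K4me3 in either: H2ac1, H2bc1, H2ac23, H2bc23, H2ac24 and H3c11. Within 1 kb of the start itself, measured for 59 members, 52 (88.1%) were called in both genotypes against 65.4% of 17274 genes. No member was called there in WT only (0.33%) or RXRKO only (1.02%), and 7 (11.9%; all genes: 33.2%) were called in neither, H1f6 in addition to the 6 above.

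Because neighbouring members share peaks, the 58 called genes rested on 47 distinct H3K4me3 peaks in WT and 46 in RXRKO, and counting per gene would have given 72 and 71. Of the distinct peaks, 22 in WT and 21 in RXRKO lay near more than 1 member. Their median length was 1178 bp in WT and 1255.5 bp in RXRKO, and over the whole lists it was 805 and 772 bp. The authors' fold over background went the other way, with a median of 5.08 (WT) and 4.83 (RXRKO) at members and 6.09 and 5.35 over the lists.

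**Figure D1:**
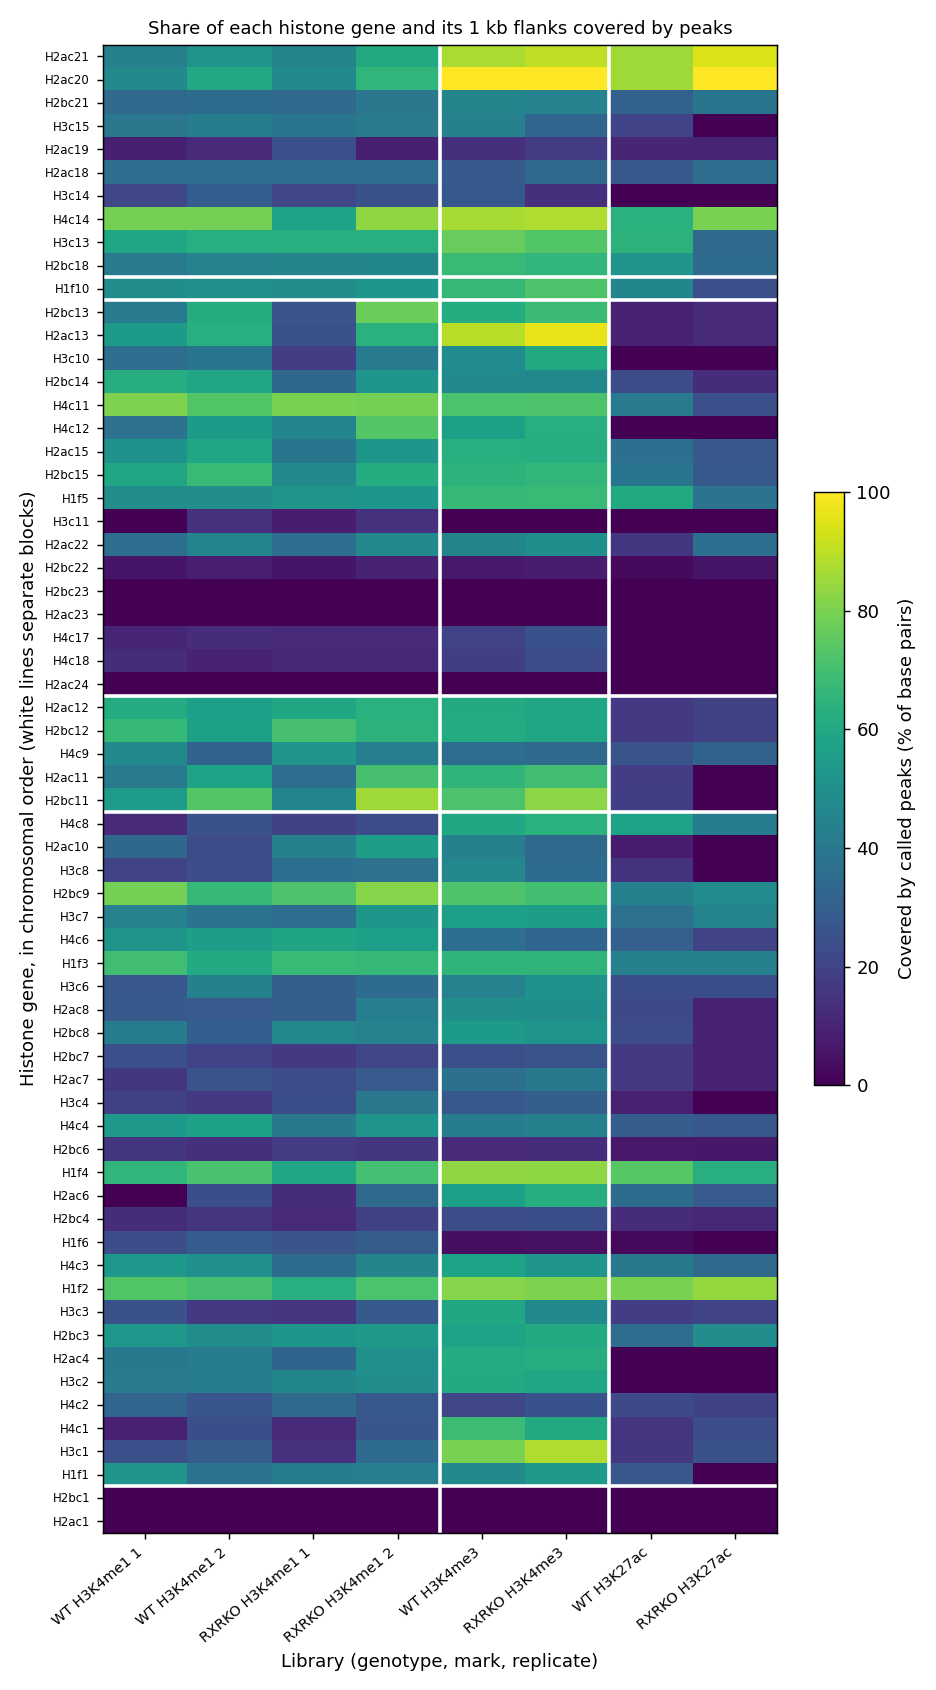
Share of base pairs covered by called peaks in each histone gene plus 1 kb on both sides (colour, percent), for 64 genes in chromosomal order (rows) and 8 libraries (columns); white lines separate gene blocks and marks. Dark rows in all columns are genes without peaks (H2bc23, H2ac23, H2ac24, H2bc1, H2ac1), and 8 genes with cover in the WT H3K27ac column are at 0 in the RXRKO one.

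Among the linker histone genes, H3K4me3 covered 2322 bp in WT and 2309 bp in RXRKO at H1f4, and 2226 and 2197 bp at H1f2. At H1f1 it covered 1315 and 1476 bp. The H1f6 window held 117 and 122 bp, which belonged to the edge of a peak at the neighbouring H4c3. H1f6 was thus the only H1 gene without H3K4me3 within 1 kb of its start.

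Among the H2A genes, a single peak covered the H2ac20 window completely (2468 bp in both genotypes), and H2ac13 had 2186 bp in WT and 2362 bp in RXRKO. The shortest nonzero values were at H2ac19, with 354 and 448 bp. H2ac1, H2ac23 and H2ac24 had none. H2ac1 and H2bc1 encode the testis variants of H2A and H2B.

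Among the H2B genes, H2bc6 had 4661 bp in WT and 4969 in RXRKO and H2bc4 2337 and 2490 bp. Both are annotated as long genes, of 37455 and 8282 bp, and their windows reach over other members. The lowest nonzero values were at H2bc7, with 602 and 622 bp, while H2bc1 and H2bc23 had 0.

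Among the H3 genes, H3c1 had 1994 bp in WT and 2200 in RXRKO and H3c13 had 1917 and 1823 bp. H3c14 had 735 and 372 bp, and H3c11 none in either. H3c14 showed the largest drop among the members in log2 covered length (-0.55), although it stayed within the 1.5-fold limit used for a call.

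Among the H4 genes, H4c14 had 2070 bp in WT and 2103 in RXRKO and H4c11 had 1733 and 1749 bp. The shortest were H4c18, with 446 and 549 bp, and H4c17, with 494 and 602 bp. All 12 H4 genes were called in both genotypes.

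Set against each other, the covered lengths of the 2 H3K4me3 libraries differed little at members. The log2 difference was taken as RXRKO minus WT on the scale of covered bp plus 500. It was centred on its median over all genes covered in at least 1 library. Over 58 members the centred difference had a median of -0.035, with 23 above 0 and 35 below. Without centring the median was 0.0159 and within 1 kb of the start 0.0117, so its sign depends on these choices. No member passed 1.5-fold in either direction; of all 16190 genes measured, 4.4% were higher and 0.599% lower. These are single libraries, so the differences have no error.

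**Figure D2:**
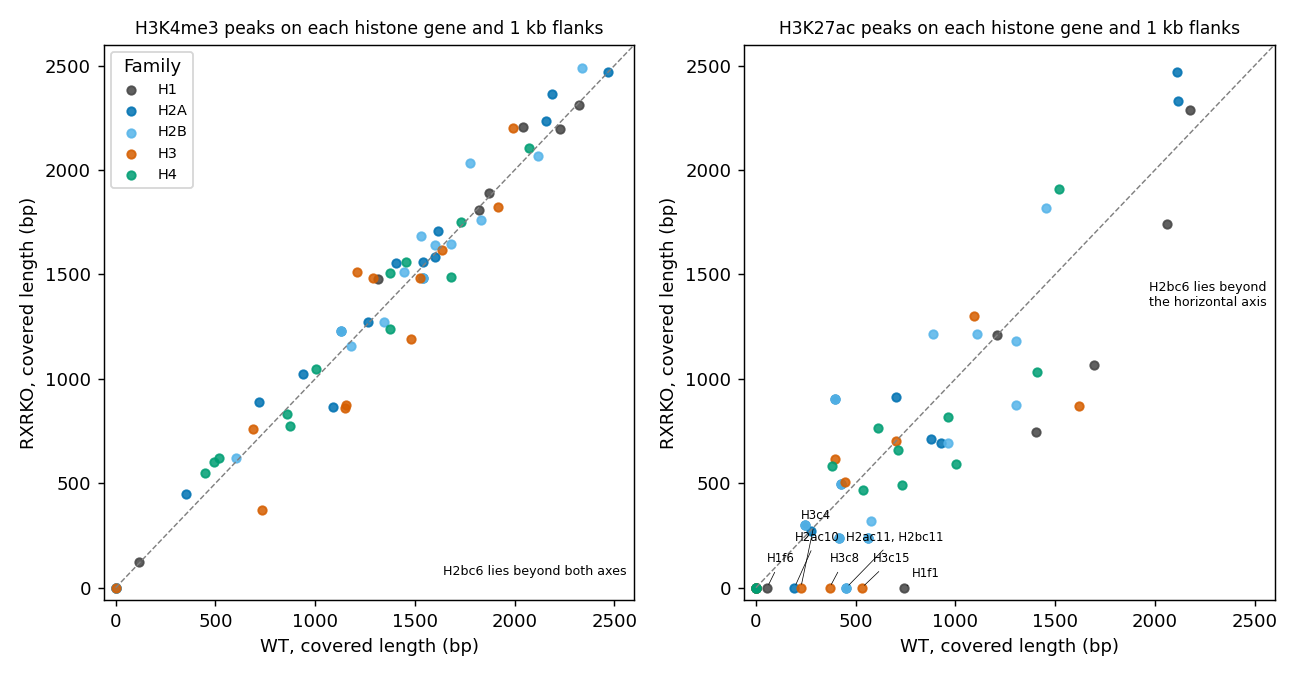
Covered length of H3K4me3 (left) and H3K27ac (right) peaks on each histone gene plus 1 kb on both sides, WT on the horizontal and RXRKO on the vertical axis, in bp; each point is a gene coloured by family, and the dashed line marks equal values. H3K4me3 points lie along the line, whereas 8 genes with H3K27ac in WT, labelled, lie at 0 in RXRKO.

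Several members have promoters that are close in sequence to each other. Of the 1711 pairs of the 59 promoters, the median identity was 45.3%. H4c17 and H4c18 were 99% identical, H3c14 and H3c15 89.7%, H4c11 and H4c12 87%, and H2ac18 and H2ac19 72.7%. At H4c11 and H4c12 the H3K4me3 peaks ran over the gene starts, whereas at the other 3 pairs the starts lay in no peak of any library. How reads that match several places were handled is not given in the sources used here, and its part in the values of these genes was not tested.

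At H4c17 (chr13:21811746-21812150, + strand) the H3K4me3 peak ran from 21812108 to 21812601 in WT and from 21812079 to 21812680 in RXRKO, so it reached only the last bases of the gene. At H4c18 (chr13:21831792-21832197, - strand), a mirror image, it ran from 21831370 to 21831815 in WT and from 21831354 to 21831834 in RXRKO, again on the last bases of the gene. The authors' fold was 12.3 and 19.8 at H4c17 and 10.2 and 12.5 at H4c18. The values at H4c17 were the highest among the member peaks of either H3K4me3 list. Neither gene had H3K27ac, and the 4 H3K4me1 libraries had 253 to 310 bp at H4c17 and 231 to 312 bp at H4c18.

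On chromosome 3, H3c15 and H2ac19 on the - strand face away from H2ac18 and H3c14 on the + strand. A stretch of 1729 bp (chr3:96238660-96240388) that holds the starts of H3c15 and H2ac19 lay in no peak of any of the 8 libraries. The same was true of 1768 bp (chr3:96245467-96247234) that hold the starts of H2ac18 and H3c14. Peaks lay against both ends: in all 4 H3K4me1 libraries the peak before H2ac18 ended between 96245407 and 96245409. The H3K4me3 peak there ended at 96245441 in WT and 96245466 in RXRKO and had a fold of 11.5 and 12.2.

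In all, 13 of the 59 members had a start in no peak of any library, and 8 of these 13 still had a peak within 1 kb of the gene in at least 1 library. Of the 52 members with H3K4me3 within 1 kb of the start in both genotypes, 6 (11.5%) had a start in no peak of any library: H3c14, H3c15, H2ac18, H2ac19, H4c17 and H4c18. Of the other genes with H3K4me3 there in both genotypes, 430 of 11253 (3.82%) did. Without the 6 genes whose promoter was at least 85% identical to another, H3K4me3 was called in both genotypes at 52 of 58 members. H3K27ac was called in WT only at 7. All 6 genes left out had H3K4me3 in both genotypes, and H3c15 alone of them had H3K27ac in WT only. Both counts therefore follow from the removal itself and test nothing. H2ac18 and H2ac19 fall below the 85% limit and stayed in. These counts were added after the data were seen.

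**Figure D3:**
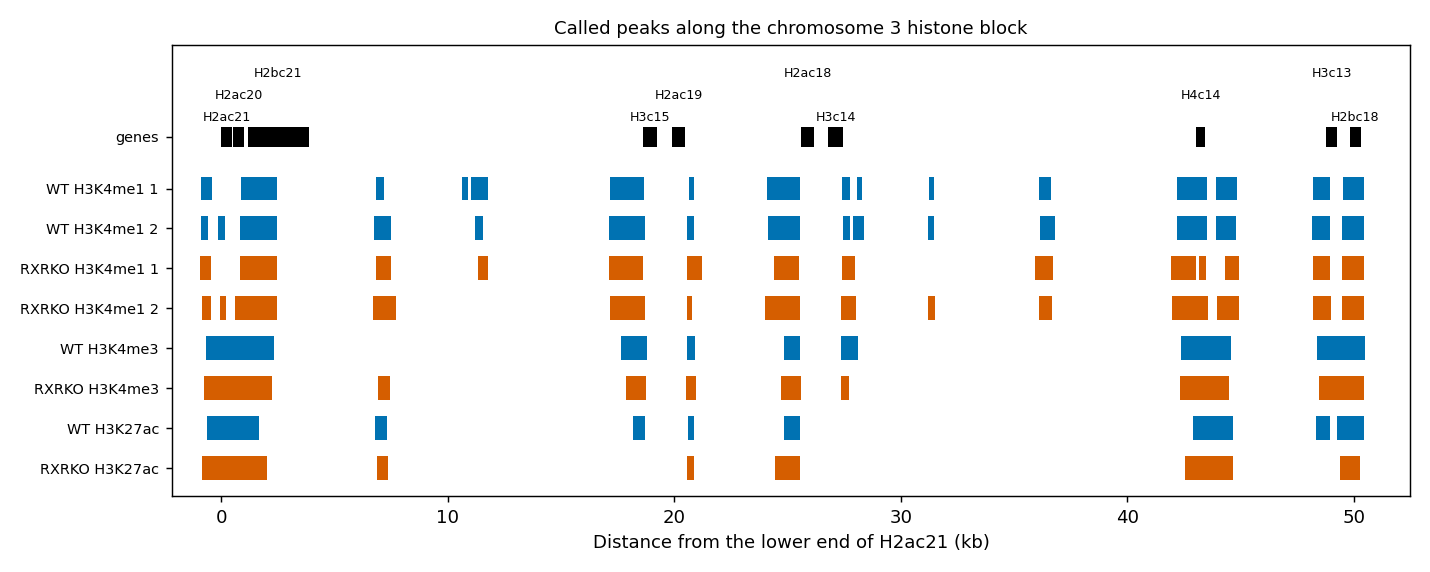
Called peaks along the 10 histone genes of the chromosome 3 block, by distance from the lower end of H2ac21 in kb; black bars are genes, blue bars WT peaks and orange bars RXRKO peaks, with 1 row per library. No library has a peak over most of H3c15 to H2ac19 or of H2ac18 to H3c14, while peaks lie against both ends of each stretch.

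Among the 59 members with a start in the promoter table, in 9 places a pair start in opposite directions from a shared promoter, each pair an H2A and an H2B gene with starts 164 to 281 bp apart. H2bc21, H2bc4, H3c7, H3c1 and H4c14 have no entry there and were not searched. A single H3K4me3 peak covered both starts of 7 pairs in both genotypes. The other 2, H2bc23 with H2ac23 and H2bc1 with H2ac1, had no peak of any mark. A single H3K27ac peak covered both starts of 6 pairs in WT and 3 in RXRKO. The pairs with both starts covered in WT and not in RXRKO were H2ac11 with H2bc11, H2ac8 with H2bc8, and H2bc7 with H2ac7. At H2ac8 and H2bc8 H3K27ac still covered 240 bp within 1 kb of the genes in RXRKO, against 561 bp in WT. At H2bc7 and H2ac7 it covered 416 bp in WT and 240 in RXRKO, with 1 of the starts covered.

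The pair of H2bc23 and H2ac23 is close in sequence to that of H2bc7 and H2ac7, with 73.3% identity between the H2B and 78.7% between the H2A promoters. H2bc7 and H2ac7 carried all 3 marks in both genotypes, whereas H2bc23 and H2ac23 had no peak. H2ac23 and H2bc23 lie in a stretch of 20870 bp without a peak in any library, which also holds the start of H4c17. Likewise, H2ac24 lies in a stretch of 18902 bp without a peak, which also holds the start of H4c18. The part of reads that match several places in these 2 stretches was not tested. H2ac1 and H2bc1 lie in a stretch of 35170 bp without peaks.

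H3K27ac was called at fewer of the histone genes than H3K4me3, and at fewer in RXRKO than in WT. It was present at 51 members in WT and 43 in RXRKO. Both libraries called 43 members (67.2%), against 67.7% of all genes. WT alone called 8 members (12.5%; all genes: 3.56%) and RXRKO alone called none (all genes: 1.15%). In 13 members (20.3%; all genes: 27.6%) neither did. These windows grow with the length of the gene, and most members are small, so the shares are not of equal windows. Within 1 kb of the start all windows have the same length. There, 38 of 59 members were called in both (64.4%, all genes: 56%) and 6 in WT only (10.2%, all genes: 4.12%). None was called in RXRKO only (all genes: 0.973%) and 15 in neither (25.4%, all genes: 38.9%).

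The 8 members called in WT only rested on 6 WT peaks. H1f1, a linker histone gene, had 743 bp in WT and 0 in RXRKO. The peak of H3c15 covered 531 bp, and that of H2ac11 and H2bc11 453 bp in both windows, again against 0. H3c8 and its neighbour H2ac10 shared a WT peak that covered 369 and 193 bp of their windows, H3c4 had 225 bp, and H1f6 56 bp. At H1f6 the WT peak overlapped an RXRKO peak that ended outside the window. The other 5 WT peaks had no overlapping RXRKO peak, and the nearest RXRKO H3K27ac peak lay 1085 to 3176 bp away.

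These were weak peaks. The strongest WT peak of the 8 genes had a deposited -log10 q of 2.13 to 8.05 (median 5.04), and that of the 43 members called in both genotypes 3.87 to 57.3 (median 11.6). The RXRKO list is the shorter of the 2 H3K27ac lists, and the part of this in the WT-only calls was not tested. Counted as peaks, 12 of 49 distinct WT peaks at members (24.5%) had no overlap in RXRKO, near the 26.7% of all WT peaks. In the other direction, 2 of 40 RXRKO peaks (5%) had no overlap in WT, against 16.6% of the whole list. With both lists cut to the same number of peaks 5 of 64 members were called in WT only (all genes: 2.76%). In RXRKO only, 1 of 64 was called (all genes: 1.697%). With peaks of -log10 q of at least 5 these were 13 (all genes: 4.49%) and 1 (all genes: 1.25%). Within 5 kb no member was called in WT only (all genes: 3.21%).

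Of the 13 members without H3K27ac, 6 also lacked H3K4me3 and 7 had it in both genotypes: H2ac4, H3c2, H3c10, H3c14, H4c12, H4c17 and H4c18. H2ac4 and H3c2 lie side by side under a shared H3K4me3 peak, which covered 1540 bp in WT and 1559 bp in RXRKO of the H2ac4 window. H4c12 had 1373 and 1508 bp of H3K4me3. H4c11, whose promoter is 87% identical, had 1003 bp of H3K27ac in WT and 590 bp in RXRKO. Of the 52 members with H3K4me3 within 1 kb of the start in both genotypes, 8 (15.4%) had no H3K27ac there in either library and 6 (11.5%) had it in WT only. Over all 11305 such genes these shares were 9.32% and 5.18%.

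Covered lengths of H3K27ac spread more between the libraries than those of H3K4me3. Over the 51 members measured, the median log2 difference was -0.043, with 22 above 0 and 29 below, and 0.045 over the gene alone. H2ac22 and H2bc22, which share a promoter, had 396 bp in WT and 905 bp in RXRKO and were the 2 members past 1.5-fold higher (all genes: 4%). The 5 past 1.5-fold lower (all genes: 7.53%) were H1f1, H3c15, H2ac11, H2bc11 and H3c8, all called in WT only. Longer cover was found in RXRKO at the H2ac20 window, with 2113 bp in WT and 2468 in RXRKO. H1f10 and H3c13 had less, with 1402 and 1618 bp in WT and 747 and 868 bp in RXRKO. Neither passed 1.5-fold on the scale used, and none of these differences has an error.

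By family, H3K27ac within 1 kb of the start is described without a test. The families hold 7 to 17 genes with a start, some sharing peaks, and each genotype has 1 library. In WT H3K27ac was called at 6 of 7 H1, 12 of 17 H2A, 12 of 14 H2B, 6 of 10 H3 and 8 of 11 H4 genes (all genes: 60.1%). In RXRKO it was called at 5, 11, 11, 3 and 8 of them (all genes: 57%). The median covered length was 903 bp at H1 genes in WT and 747 bp in RXRKO, and 297 and 0 bp at H3 genes. Among genes with a start entry, H3 genes thus had the lowest median H3K27ac cover of the families in both libraries. This leaves out H3c7 and H3c1, which have no entry. Over the gene and its flanks, H3K27ac covered 1093 and 397 bp of them in WT and 1301 and 617 bp in RXRKO. It includes H3c14 and H3c15, whose starts lay in no peak of any library. The 10 H3 genes had a median H3K4me3 cover of 1183.5 bp in WT, between those of the other families (1005 to 1431 bp). In RXRKO it was 1033 bp, the lowest of the families (the others: 1049 to 1473 bp).

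H3K4me1 peaks lay near 57 and 59 members in WT and near 59 in each RXRKO library, on 77, 78, 80 and 76 distinct peaks. Within 1 kb of the start it was called at 88.1% and 91.5% of 59 members in WT and at 91.5% in each RXRKO library. Of all 17274 genes, 67% and 69.8% were called there in WT and 66.7% and 69.9% in RXRKO. None of the 16924 genes tested, and so none of the 58 members tested, differed between genotypes at an adjusted p under 0.05 (limma, covered length of the gene plus 1 kb; 0% called). At an unadjusted p under 0.05 there were 874 genes (5.16%) and 2 members (3.45%). Leaving out WT replicate 1 gave 16 called genes and leaving out WT replicate 2 gave 13, with no member among them; in these fits WT is 1 library, which is assumed to vary like the RXRKO pair. A fit with the replicate number as a block called 1 gene and no member.

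H2bc14 had 1547 and 1461 bp in WT and 835 and 1309 bp in RXRKO. Both RXRKO libraries were below both WT libraries, and the log2 difference was -0.42 (SE 0.158, adjusted p = 0.877, and 0.541 with the block). H2ac10 had 834 and 585 bp in WT and 1089 and 1396 bp in RXRKO. Here both RXRKO libraries were higher, by 0.47 (SE 0.191, limma adjusted p = 0.930).

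H3c8, the neighbour of H2ac10, had 514 and 592 bp in WT and 912 and 944 bp in RXRKO, a difference of 0.38 (SE 0.196). H4c3 had 1263 and 1195 bp in WT and 835 and 1082 bp in RXRKO, a difference of -0.31 (SE 0.159). H2ac13 had 1334 and 1543 bp in WT and 611 and 1567 bp in RXRKO, a difference of -0.41 (SE 0.226). Its groups overlapped in bp and were separate only after centring on each library's median. Its partner H2bc13 had 1017 and 1528 bp in WT and 648 and 1915 bp in RXRKO, with the WT values between those of RXRKO.

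Over the 58 members tested, 24 differences were above 0 and 34 below, the median was -0.013 and the range -0.42 to 0.47. The median over all genes was -0.0063. Without centring 37 of 58 were above 0, over the gene alone 6 of 38, and within 1 kb of the start 35 of 53 with a median of 0.026, so the balance of signs depends on these choices. In values centred on each library's median, both RXRKO libraries were above both WT libraries at 4 members (6.90%; all genes: 15.2%) and below at 11 (18.97%; all genes: 15.9%). In covered bp before centring they were above at 9 (all genes: 17.8%) and below at 3 (all genes: 6.61%), the 3 being H2bc14, H4c3 and H4c4. H2ac10, H3c8 and H3c4 were higher in H3K4me1 in both RXRKO libraries and had H3K27ac in WT only. At H3c4, H3K4me1 covered 481 and 424 bp in WT and 604 and 996 bp in RXRKO. These 3 genes were picked out after their values were seen.

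**Figure D4:**
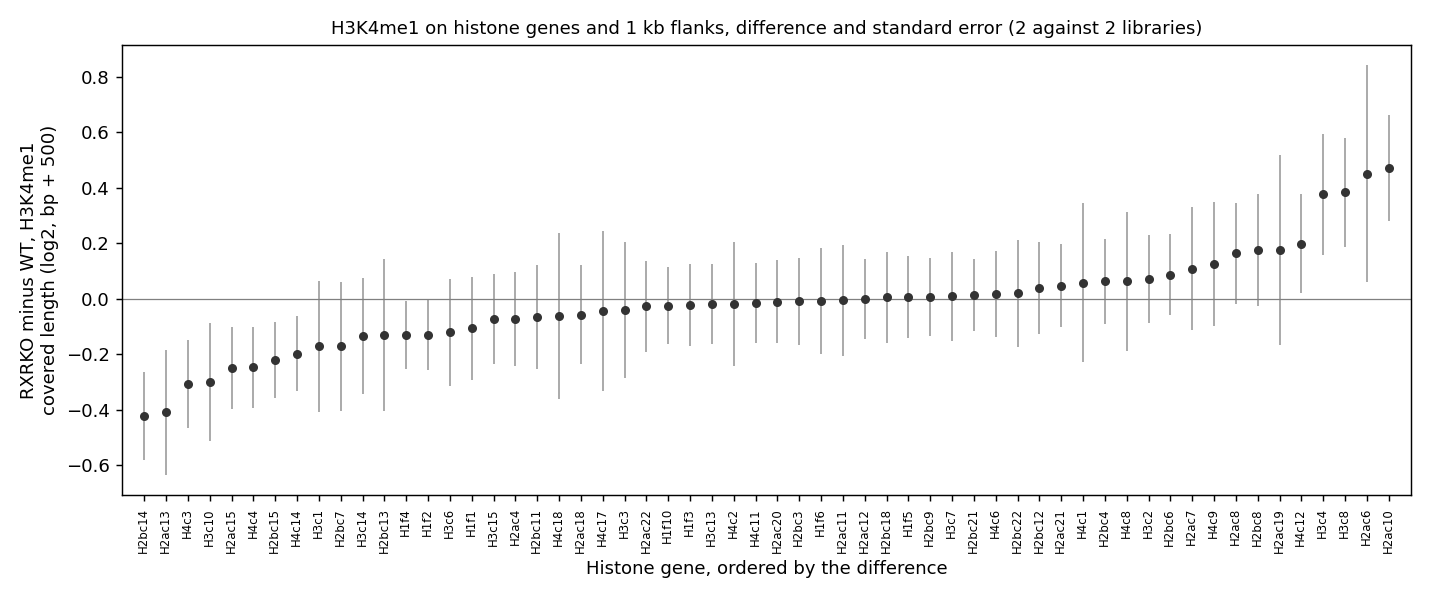
Difference in log2 H3K4me1 covered length, RXRKO minus WT, for the 58 members tested, ordered by the difference; points are limma estimates from 2 against 2 libraries and bars their standard errors. The estimates run from -0.42 at H2bc14 to 0.47 at H2ac10, and none had an adjusted p under 0.05.

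Around the start, the 52 members with H3K4me3 in both genotypes had narrower cover on the gene side than the 11253 other genes with H3K4me3 there. At 50 bp after the start, WT H3K4me3 covered 87.0% of the bin on average at members and 94.0% at other genes. Of the 52 members, 6 (11.5%) had a start in no peak of any library, against 3.82% of the other genes. These starts enter the averages of every mark, and their part was not tested. At 850 bp after the start WT H3K4me3 covered 37.3% and 65.2%, and RXRKO H3K4me3 37.8% and 67.0%. Most members are shorter than this distance, so for them the bin lies past the end of the gene. At 850 bp before the start the order turned, with 38.3% and 23.3% in WT and 41.7% and 24.1% in RXRKO. Members lie close together, and this upstream cover includes peaks of their neighbours.

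H3K27ac at 50 bp after the start covered 63.6% of the bin at members and 76.3% at other genes in WT, and 43.5% and 68.3% in RXRKO. The covered length within 1 kb of the start, over the genes called, had a median of 703.5 bp at members and 1037 bp at all genes in WT, and of 691 and 1010 bp in RXRKO. For H3K4me3 it was 1344.5 and 1395.5 bp in WT and 1378.5 and 1407 bp in RXRKO. The strongest fold near a member's start had a median of 5.25 in WT and 5.08 in RXRKO, and over all called genes 8.202 and 8.27. These are descriptions of single libraries, with no test of members against other genes.

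**Figure D5:**
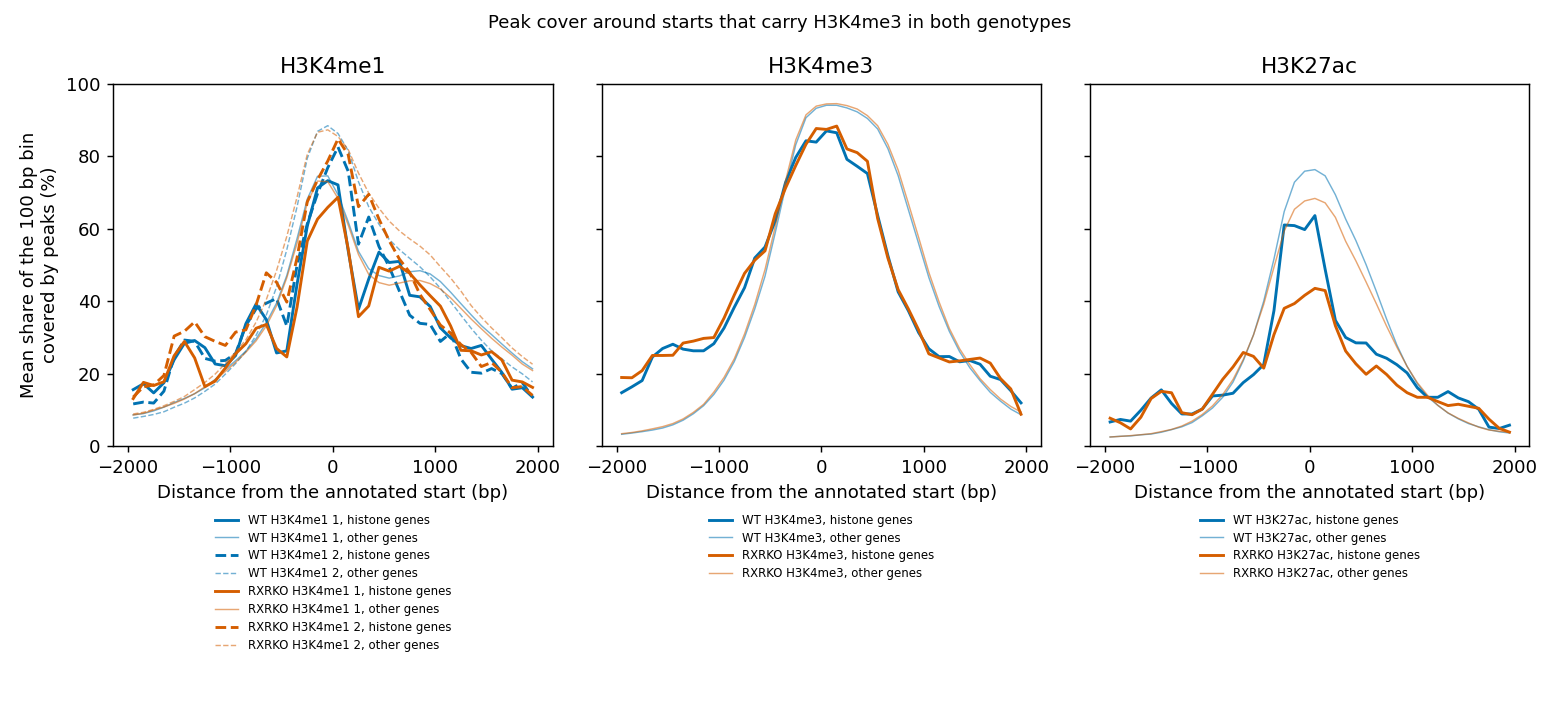
Mean share of each 100 bp bin covered by peaks (percent), by distance from the annotated start in bp, for H3K4me1, H3K4me3 and H3K27ac; thick lines are the 52 histone genes and thin lines the 11253 other genes with H3K4me3 in both genotypes, blue WT and orange RXRKO, dashed lines replicate 2. At 850 bp after the start, past the end of most of the histone genes, WT H3K4me3 covered 37.3% of the bin at histone genes and 65.2% at other genes.

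Along the chromosomes, members within 100 kb of each other formed a block of 10 genes on chromosome 3 (chr3:96219885-96270192) and blocks 1 to 4 on chromosome 13, with H1f10 alone on chromosome 6. Block 1 of chromosome 13 (chr13:21715711-21833475, 17 genes) was the more thinly covered of the larger blocks, with H3K4me3 over 10.1% of it in WT and 11.1% in RXRKO, and H3K27ac over 4.10% and 3.23%. In block 3 (chr13:23531044-23764412, 29 genes) H3K4me3 covered 14.6% and 14.9% and H3K27ac 8.50% and 7.47%. The chromosome 3 block had 19.7% in both H3K4me3 libraries and 14.99% and 14.77% for H3K27ac. Block 4 of chromosome 13, H2bc1 with H2ac1, had no peak.

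H3K4me1 covered 14.9% to 16.3% of block 3 of chromosome 13, on 50 to 53 peaks, with the genotypes overlapping. Of the H3K27ac peaks in all blocks, 55 were in WT and 44 in RXRKO, so that RXRKO held 44.4% (95% exact Clopper-Pearson interval 34.5% to 54.8%, counting error only), and 46.6% of both whole lists. For H3K4me3 there were 50 in WT and 51 in RXRKO (50.5%, whole lists: 54.9%), and for H3K4me1 185 and 179 (49.2%, whole lists: 50.3%). The interval takes peaks as independent, although many WT and RXRKO peaks overlap, so it is only a rough limit.

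Between blocks 2 and 3 of chromosome 13 lie 1485.4 kb with 41 protein-coding genes, 36 of them Vmn1r genes, which encode pheromone receptors of the vomeronasal organ. None of the 36 had a peak in any of the 8 libraries. Peaks covered 0.599% to 2.27% of this stretch in the single libraries. Zfp322a, Abt1 and Btn1a1 in it were called in all 8 libraries, and Btn2a2 in all but RXRKO H3K27ac. The only protein-coding gene between the members of a block, Hfe, a regulator of iron uptake, had both H3K4me3 and H3K27ac in both genotypes.

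Genes that act on the histone clusters carried both promoter marks. All 33 genes of the histone locus body and of histone mRNA processing had H3K4me3 and H3K27ac in both genotypes, and so did 24 of 24 histone chaperone and assembly genes; of all genes, 73.1% had H3K4me3 and 67.7% H3K27ac in both. Within 1 kb of the start, Gon4l of the former list had no H3K27ac in either genotype. Npat, the activator of histone transcription, had 2174 bp of H3K4me3 in each genotype and 1574 and 1506 bp of H3K27ac. Slbp, which binds the stem-loop of histone mRNA, had 1838 and 1883 bp of H3K4me3, and 1151 and 1517 bp of H3K27ac. Casp8ap2, another component of the histone locus body, had 1480 and 1450 bp of H3K4me3.

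Lsm10 and Lsm11, subunits of the U7 particle that cuts histone mRNA, had, in that order, 1242 and 1608 bp of H3K4me3 in WT and 1196 and 1491 bp in RXRKO. Zfp473, a zinc finger protein of that particle, had 1962 bp in WT and 1992 in RXRKO, and Hinfp, an activator of H4 genes, 1503 and 1421 bp. In H3K4me1 none of the 33 was called by limma at an adjusted p under 0.05; 2 had an unadjusted p under 0.05, 18 differences were above 0 and 15 below, and the median was 0.00094. For the chaperones none was called, with 12 above and 12 below and a median of -0.026.

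Of the 17 genes found from the list of replication-independent variants, which include H1f10, 13 had H3K4me3 in both genotypes and 4 in neither. Among the 13 was H2bu2, which had H3K27ac in both genotypes too. Its older name, Hist3h2ba, falls under the rule for members, so its place in this list is open to doubt. The 4 were H1f7, Hils1, H2ap and H2ab1. H1f7, Hils1 and H2ab1 encode testis variants, as do H2ac1, H2bc1 and H1f6 among the members. H3K27ac was called in both genotypes at 12, in WT only at Macroh2a2, which had 848 bp in WT and 0 in RXRKO, and in neither at 4. Within 1 kb of the start, H2az1 too had H3K27ac in WT only, with 730 bp in WT and 0 in RXRKO. Over the gene and its flanks H2az1 had 1442 and 865 bp. Macroh2a2 had 2007 bp of H3K4me3 in WT and 1453 in RXRKO. None of the 13 tested was called in H3K4me1 (limma, median difference -0.025).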

How the data were processed

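The submitters' processing notes name cutadapt 1.7.1, Bowtie2 2.2.5, MACS3 and the build mm10. Not given in the sources used here are a control library, duplicate and multi-mapping reads, spike-in and the MACS3 version. Peaks were called per library. Per peak, the deposited lists give the authors' score, fold ratio over background, -log10 p, -log10 q and summit position. Scores, p-values and summits were not used as results. Fold ratios and -log10 q only describe or filter peaks within a list.

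Gene positions came from the RefSeq annotation of GRCm38.p6. Per gene and library, the base pairs covered by peaks on the gene plus 1 kb on both sides were summed. For H3K4me1, log2 of covered bp plus 500 had the library median subtracted. The test, limma 3.58.1 (R 4.3.3; lmFit, eBayes with trend), took the 16924 genes whose mean reached 250 bp, with Benjamini-Hochberg adjustment over all of them. The fit was tested on simulated data. H3K4me3 and H3K27ac have 1 library per genotype, so calls and lengths are given without a test and 1.5-fold counts as changed. Peaks near several members were counted once.

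Run tags in the peak names take 2 values, and the H3K4me1 libraries of replicate 1, WT and RXRKO, are alone with theirs. What the tag stands for is not stated. So the replicate number may mark a batch, and each value of it contains WT and RXRKO. Across those 16924 genes, which are no independent replicates, the replicate differences of WT and of RXRKO had r = 0.286. The block fit is given beside the fit without it.

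Genes named with values were members whose calls differ between genotypes or that lack H3K4me3, the 2 longest and 2 shortest per family in H3K4me3 cover, the 5 smallest H3K4me1 p-values, partners in shared promoters, and Npat, Casp8ap2, Slbp, Lsm10, Lsm11, Hinfp, Zfp473 and list genes whose calls differ. Other names were chosen after their values were seen. The members and lists were chosen with earlier results of these data known. Alternatives varied the block, pseudocount, filter, centring, peak threshold, list length, overlap, window, block gap and libraries; 2 were added after seeing the data, a window around the start and leaving out near-identical promoters. 1 lymphocyte marker is not reported here. The gene list of histone locus body and processing had 34 names, of which 33 genes were found because 2 names are synonyms.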

Additional observations from a re-analysis of the deposited data

How the results depend on the processing

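No histone gene was called in H3K4me1 under the alternatives run; where a library is left out, its genotype is 1 library, assumed to vary like the other genotype's pair, so those fits say little. The count of all called genes was 0 in the main analysis, 1 with the replicate block, and between 0 and 16 when leaving out each H3K4me1 library in turn; the cause was not tested. The members' median H3K4me1 difference was -0.013. It became 0.0433 without centring, where the median of all genes moved to 0.0502, and -0.0712 over the gene alone, where 38 members were tested. Leaving out a library moved it between -0.0842 and 0.0459, so its sign rests on single libraries. With the replicate block it was again -0.013. In the window of 1 kb around the start, without the block, it was 0.026. The H3K4me3 median turned to 0.0159 without centring and 0.0117 within 1 kb of the start, and the H3K27ac median to 0.045 over the gene alone.

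H3K4me3 calls moved by over 1.5 times in the window of 5 kb, where 2 members were called in neither genotype; this was 9 over the gene alone and 7 with an overlap of at least 200 bp. For H3K27ac, the 8 members called in WT only became 13 with peaks of -log10 q of at least 5, 5 with lists of the same number of peaks, and 0 within 5 kb. RXRKO only rose from 0 to 1 in each of 3 settings: peaks of -log10 q of at least 5, lists of the same number of peaks, and the gene alone. Among all genes the WT-only share was 4.49% with the q limit, 2.76% with equal lists and 3.21% within 5 kb (main analysis: 3.56%). The RXRKO-only share was 1.25% with the q limit, 1.697% with equal lists and 1.202% over the gene alone (main analysis: 1.15%). Members called in neither became 20 over the gene alone (all genes: 29.3%) and 7 within 5 kb (all genes: 23.9%). The wider or narrower window accounts for part of this by construction, and the cause of the rest was not tested. The other 111 values stayed within the limits used (1.5 times for counts, 0.1 on the log2 scale for single-library medians, 1 SD between replicates for H3K4me1, the 95% interval for shares), which some reach with a change of sign, as given. Depth is unknown, and a missing peak does not show that a mark is absent.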
